A study of Mus musculus with 3 samples.

Results

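NF-κB is a family of paired transcription factors. Its 5 subunits and 5 genes grouped here as inhibitors are described in follicular T cells of the mouse spleen. Nfkb1, Nfkb2, Rel, Rela and Relb encode the subunits. Nfkbia, Nfkbie, Nfkbid, Nfkbiz and Tnfaip3 are grouped as inhibitors, which is a label, and no inhibition was measured in these data. The 10 genes were chosen by name, out of 32285 genes counted. Their raw counts were summed over the annotated cells of each library, by class of cell and by subcluster. In resting lymphocytes IκB proteins hold NF-κB dimers in the cytoplasm. Signals from the antigen receptor, from CD28 or from receptors of the TNF family activate IκB kinases, IκB is degraded and the dimers enter the nucleus. There they switch on, among other genes, those of their own inhibitors. In T cells the subunits c-Rel and p65 take part in activation and in the making of regulatory T cells.

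Both genotypes were immunised with OVA-liposome and spleen cells were taken at day 14. One genotype was Wild-Type (WT) and the other lacked Siglec-G, an inhibitory receptor that binds sialic acid, in B cells (BKO). Antibodies to surface markers were used to sort Tfh cells, the follicular helpers of B cells, and Tfr cells, their regulatory counterparts, which carry Foxp3. The labels name no number, age or strain of mice and no Cre driver. The knockout is in another cell type than the cells counted. Single cells were counted with the 10x 3′ assay, in which unique molecular identifiers (UMIs) count molecules.

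The WT samples, labelled batch 1 and batch 2, hold the same cells: all 5554 barcodes of the first were found in the second. They are called WT run 1 and WT run 2 and count as 1 library, so 1 WT library stands against 1 BKO library (labelled batch 1). Without replicates no test could be run, and intervals cover counting error only, at 95%. The sums cover 3727 Tfh and 1416 Tfr cells of WT run 1, 3668 and 1449 from WT run 2, and 6389 and 2044 from BKO, with medians of 4413 to 8407 UMIs per cell. Among 8433 BKO cells 13 share a barcode with WT cells. Of the WT cells annotated in both runs, 527 of 5068 were put in another class in the other run. Foxp3 stood at 356, 331 and 349 UMIs per 1000000 counted (CPM) in Tfr cells and at 0.801, 16.5 and 1.33 CPM in Tfh cells, in the order WT run 1, WT run 2 and BKO. Markers of T cells summed to between 4090 and 5262 CPM, and those of B cells to between 8.32 and 11.9 CPM.

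Promoters of 7 of the 10 genes were found in a RefSeq table for GRCm38.p6 that holds 250 bases before and 50 after each start. They were searched on both strands for the κB consensus (GGG, a purine, any 2 bases, 2 pyrimidines and CC), and matches may overlap each other. Of these 7 genes 6 had a match in at least 1 promoter (Nfkb2, Rel, Nfkbia, Nfkbid, Nfkbie and Tnfaip3), and Rela had none. A match was held by 8.46% of all 32851 promoters listed, and 9.55% of the genes listed had one in any promoter. Nfkb1, Relb and Nfkbiz were not in the table. The 120 bases just before the RefSeq start are shown for the 3 inhibitors whose window holds a match and touches no annotated exon. They run from 5′ to 3′ along the gene, with the match in capitals. They lie at chr12:55492648-55492767 (minus strand) for Nfkbia, chr17:45555580-45555699 (plus strand) for Nfkbie and chr10:19015411-19015530 (minus strand) for Tnfaip3.
Nfkbia: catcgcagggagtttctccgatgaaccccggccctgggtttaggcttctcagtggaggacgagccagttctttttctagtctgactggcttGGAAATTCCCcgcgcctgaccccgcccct
Nfkbie: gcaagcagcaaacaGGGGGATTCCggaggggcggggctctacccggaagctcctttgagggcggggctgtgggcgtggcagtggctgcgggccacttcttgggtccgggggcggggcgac
Tnfaip3: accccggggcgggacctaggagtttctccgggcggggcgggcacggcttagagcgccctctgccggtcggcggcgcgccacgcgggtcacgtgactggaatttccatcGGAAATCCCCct
The match ends 20 bases before the RefSeq start in Nfkbia, 97 in Nfkbie and 3 in Tnfaip3. The Tnfaip3 window lies inside the span of the gene in GENCODE (19000910 to 19015657), whose start lies further upstream than the RefSeq start used. It is thus not upstream of the whole gene. A match of letters is a description and was not tied to binding in these data.

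Levels of the subunits in Tfh cells are given first, each for WT run 1, WT run 2 and BKO in that order. Nfkb1, whose product p105 is cut to p50 (chromosome 3, 135584655 to 135691547, minus strand, mm10), was at 320, 309 and 257 CPM. Rel, which encodes c-Rel (chromosome 11, 23736847 to 23770970, minus strand), was at 133, 127 and 109 CPM. Both were lower in BKO than in either WT run. Relb, the partner of p52 in the non-canonical pathway (chromosome 7, 19606217 to 19629438, minus strand), was at 71.4, 63.9 and 65.0 CPM. Rela, which encodes p65 (chromosome 19, 5637483 to 5648130, plus strand), was at 50.4, 51.7 and 49.9 CPM. Nfkb2, whose product p100 is cut to p52 (chromosome 19, 46304320 to 46312385, plus strand), was at 20.4, 21.0 and 23.0 CPM. In BKO, Relb lay between the WT runs, Rela just below both and Nfkb2 above both. Nfkb2 overlaps Psd on the other strand, and Nfkb1 overlaps the model Gm43430 on the same strand, so part of their counts is uncertain.

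Tfr cells were counted in the same way, and their Nfkb1 stood at 418, 417 and 306 CPM. Rel stood at 179, 178 and 155 CPM. Relb stood at 89.7, 84.3 and 90.3 CPM. BKO was again below both WT runs for Nfkb1 and Rel and slightly above both for Relb. Rela stood at 52.7, 51.3 and 52.0 CPM, between which no order can be read. Nfkb2 stood at 32.6, 31.9 and 38.4 CPM, higher in BKO.

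Among the inhibitors, Nfkbia differed most between the genotypes. It encodes IκBα, an inhibitor that NF-κB itself induces quickly (chromosome 12, 55489410 to 55492647, minus strand). Its level in Tfh cells was 159 (interval 153 to 165), 149 (144 to 153) and 222 (217 to 226) CPM. In Tfr cells it was 267 (256 to 279), 260 (252 to 269) and 436 (426 to 447) CPM. The intervals of BKO lay above those of both runs in both classes.

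The other inhibitors differed less. Nfkbie encodes IκBε, a second cytoplasmic inhibitor (chromosome 17, 45555703 to 45563169, plus strand), and stood at 25.5, 23.8 and 26.4 CPM in Tfh cells and at 27.3, 28.5 and 33.4 CPM in Tfr cells. Nfkbid encodes IκBNS, a nuclear IκB protein (chromosome 7, 30421732 to 30428746, plus strand), and stood at 34.2, 33.8 and 39.6 CPM in Tfh cells and at 35.9, 37.4 and 46.5 CPM in Tfr cells. Tnfaip3 encodes A20, a ubiquitin-editing enzyme that shuts off signals to the IκB kinases (chromosome 10, 19000910 to 19015657, minus strand). It stood at 31.6, 30.7 and 31.6 CPM in Tfh cells and at 38.4, 38.8 and 47.7 CPM in Tfr cells. These 3 were above both WT runs in Tfr cells, and in Tfh cells A20 transcripts were at the level of WT run 1. Nfkbiz encodes IκBζ, a nuclear IκB protein (chromosome 16, 55811375 to 55838899, minus strand), and stood at 95.7, 90.8 and 76.8 CPM in Tfh cells and at 105, 110 and 96.2 CPM in Tfr cells. It was the inhibitor that was lower in BKO in both classes.

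**Figure D1:**
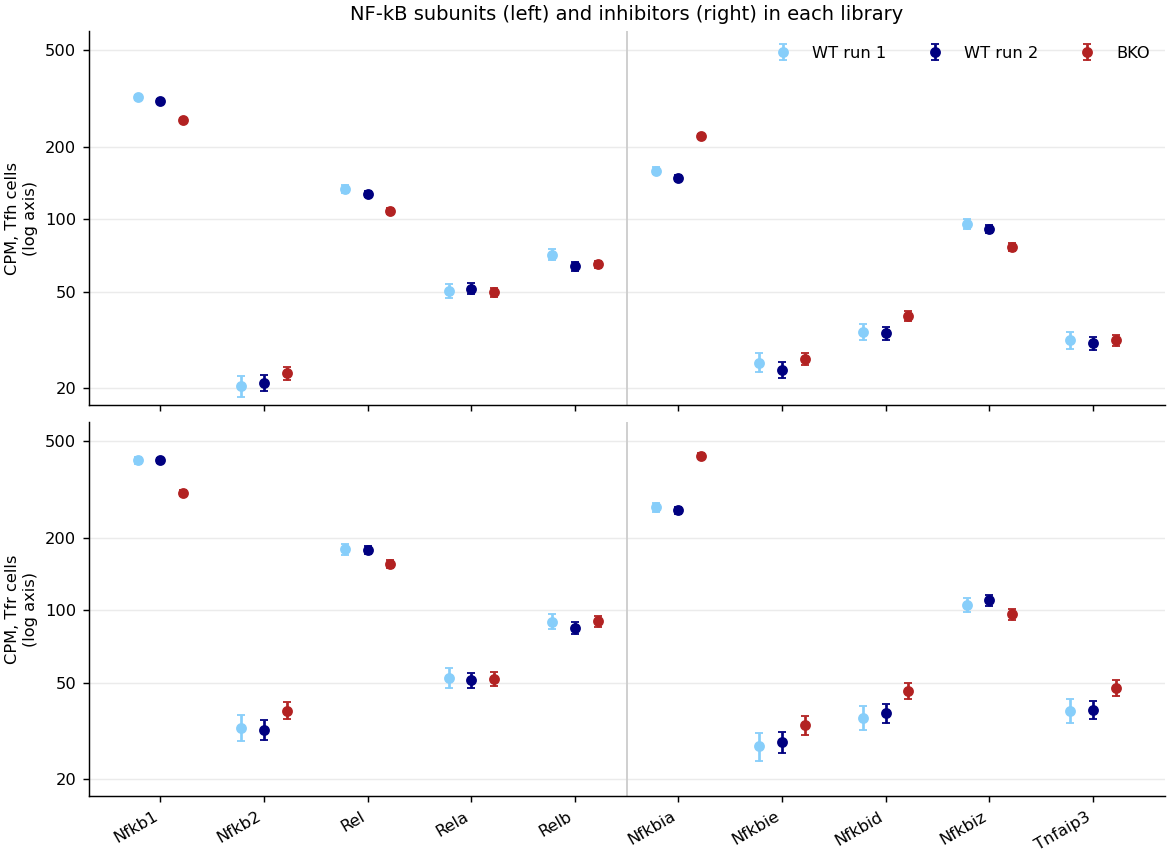
Level of each gene in Tfh (top) and Tfr cells (bottom) of each library, in CPM on a log axis; points are sums over all cells of the class and bars exact Poisson intervals. Nfkbia stands at 222 CPM in BKO Tfh cells and 436 CPM in BKO Tfr cells, above both WT runs, while Nfkb1 and Rel stand below them.

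To be called, a gene needed a mean of 20 CPM or more, and a BKO level beyond both WT runs by 1.5 times or more in the same direction. All 10 genes reached that mean in both classes. In Tfh cells 0 of the 10 were called, against 2.85% of the 6559 genes measured (0.396% higher and 2.45% lower). In Tfr cells 1 of the 10, Nfkbia, was called higher, against 3.29% of 6539 genes (0.887% higher and 2.4% lower). Regardless of size, 4 of the 10 were above both WT runs in Tfh cells and 4 below both, against 31.9% and 58.9% of all genes. In Tfr cells 6 were above and 3 below, against 33.3% and 56.6%.

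As log2 ratios of BKO to the mean of the WT runs, with 0.5 CPM added, Nfkbia was at 0.53 in Tfh cells (counting interval 0.48 to 0.59) and at 0.72 in Tfr cells (0.67 to 0.79), which is 1.44-fold and 1.65-fold higher. The median over all genes was -0.10 in Tfh and -0.09 in Tfr cells. The median of the 5 subunits was -0.06 in Tfh and 0.00 in Tfr cells, and that of the 5 inhibitors 0.09 and 0.30. These medians take no account of intron length, which is described next. Nfkb1 was at -0.29 and -0.45, Rel at -0.26 and -0.20, and Nfkbiz at -0.28 and -0.16. With TMM scaling, which moved the median over all genes to 0.06 in Tfh cells, Nfkbia was called there too (0.69), and Rela (-0.03) and Relb (-0.06) came to 0.13 and 0.10.

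The intron length of the genes moved with these ratios. The file headers name cellranger-7.0.1 for WT and Cell Ranger 4 for BKO. Only the newer one includes intronic reads by default. The setting used is not named in the labels or headers, and its effect cannot be told apart from that of the genotype. Nfkb1 holds 94.8 kb of intron, and the 218 Tfh genes of like intron length had a median log2 ratio of -0.31, so that Nfkb1 lay above 56.4% of them. In Tfr cells the median was also -0.31, and Nfkb1 lay above 18.8% of such genes, at -0.14 after that median was taken off. Rel (26.7 kb) and Nfkbiz (22.5 kb) lay above 21.0% and 9.13% of the genes of like length in Tfh cells and above 33.0% and 30.3% in Tfr cells. Nfkbia holds 1.63 kb of intron, where the median was 0.18 in both classes, and it lay above 98.2% of such genes in both. After the median for intron length was taken off, Nfkbia kept 0.35 in Tfh and 0.54 in Tfr cells, and it was no longer called. Tnfaip3 (7.52 kb) kept 0.23 in Tfr cells, above 89.9% of such genes, and -0.04 in Tfh cells. With the intron median taken off, the 5 subunits stood at a median of 0.00 in Tfh and -0.07 in Tfr cells. The 5 inhibitors then stood at -0.04 in Tfh and 0.17 in Tfr cells.

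**Figure D2:**
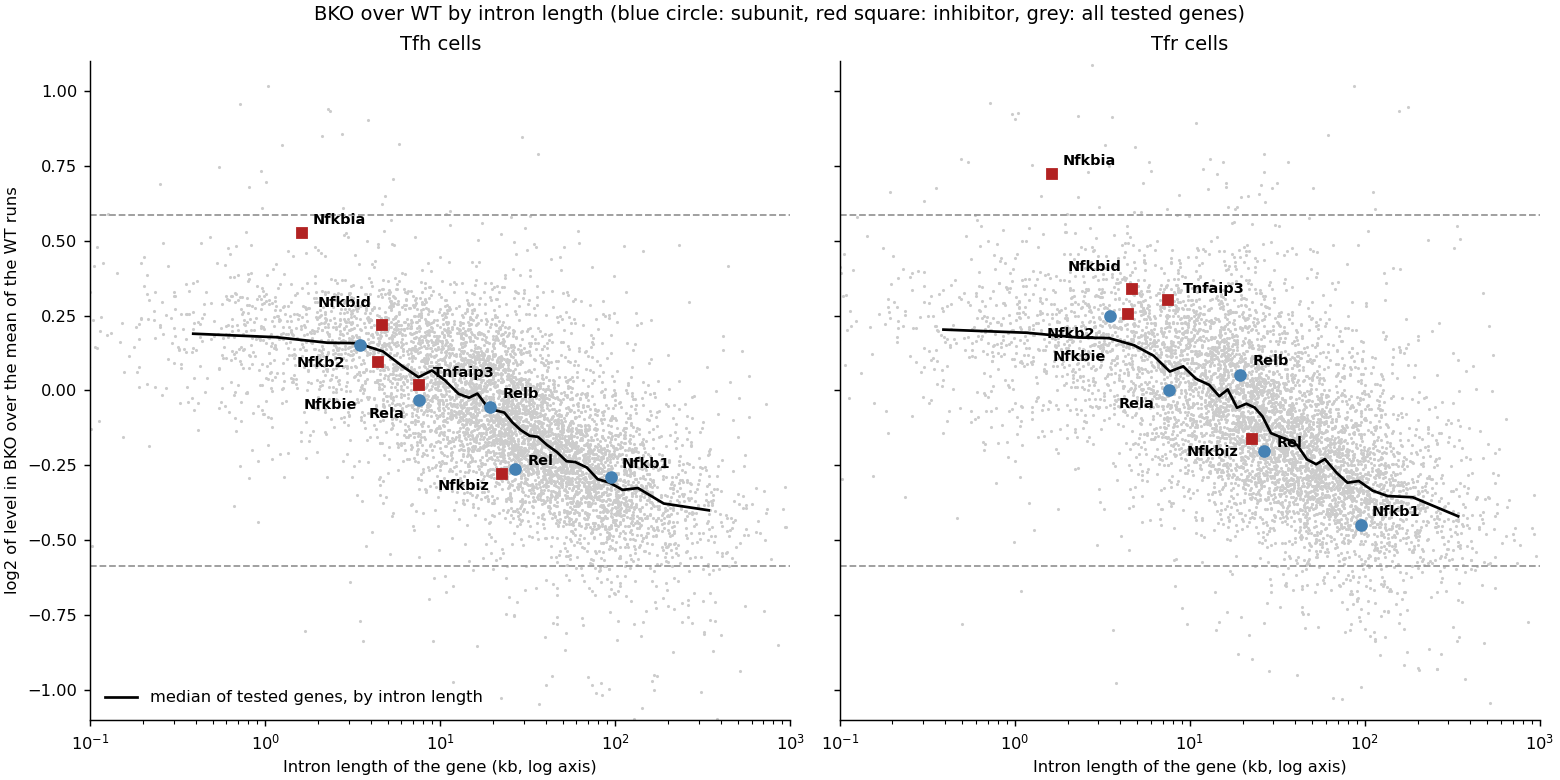
Log2 ratio of BKO to the mean of the WT runs against the intron length of the gene (kb, log axis), for Tfh (left) and Tfr cells (right); grey points are all genes measured, the line is their median over bins of intron length, dashed lines mark 1.5 times, and genes beyond the axes are not drawn. Nfkbia lies above the line, by 0.35 and 0.54, while the other 9 genes lie within 0.19 of it in Tfh and 0.23 in Tfr cells.

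The share of cells with a UMI of Nfkbia, after each cell was thinned to 2500 UMIs, was 25.5%, 24.4% and 33.0% of Tfh cells and 37.1%, 35.4% and 48.7% of Tfr cells (WT run 1, WT run 2, BKO). Without thinning the shares in Tfh cells were 38.8%, 49.5% and 55.1%. Cells with at least 3 thinned UMIs of Nfkbia made up 2.92%, 2.93% and 5.39% of Tfh cells and 7.25%, 6.50% and 14.3% of Tfr cells. Both more positive cells and more cells of high count were thus seen in BKO. For Nfkb1 the thinned shares were 58.5%, 57.8% and 47.1% of Tfr cells, and for Rel 30.5%, 27.5% and 26.7%. Free RNA was counted in BKO barcodes of 1 to 50 UMIs, where Nfkbia made up 213 CPM, against 277 CPM over all annotated BKO cells. No type of cell that should lack Nfkbia was at hand, so shares of cells with a UMI are not read as shares of expressing cells.

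Tfr cells held more of most of these transcripts than Tfh cells, within every library. Both classes of a library were counted with the same settings. Nfkbia was 1.68-fold, 1.75-fold and 1.96-fold higher in Tfr than in Tfh cells, again in the order WT run 1, WT run 2 and BKO, above at least 98.2% of the genes measured in each. Nfkb2 was 1.59-fold, 1.51-fold and 1.65-fold higher. These 2 genes passed 1.5 times in all 3 samples, where 2.77%, 2.99% and 4.57% of all genes did, and Tnfaip3 (log2 ratios of 0.28, 0.34 and 0.59) passed in BKO. Rel was 1.34-fold, 1.40-fold and 1.43-fold higher, and Relb 1.25-fold, 1.32-fold and 1.39-fold. Nfkb1 was 1.31-fold, 1.35-fold and 1.19-fold higher. Rela was level between the classes, at log2 ratios of 0.06, -0.01 and 0.06, with intervals that include 0 in all 3 samples. The remaining inhibitors Nfkbid, Nfkbie and Nfkbiz lay between 0.07 and 0.34. The interval included 0 for Nfkbid in WT run 1 (-0.13 to 0.27) and WT run 2 (-0.01 to 0.30). It also did for Nfkbie in WT run 1 (-0.14 to 0.33).

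**Figure D3:**
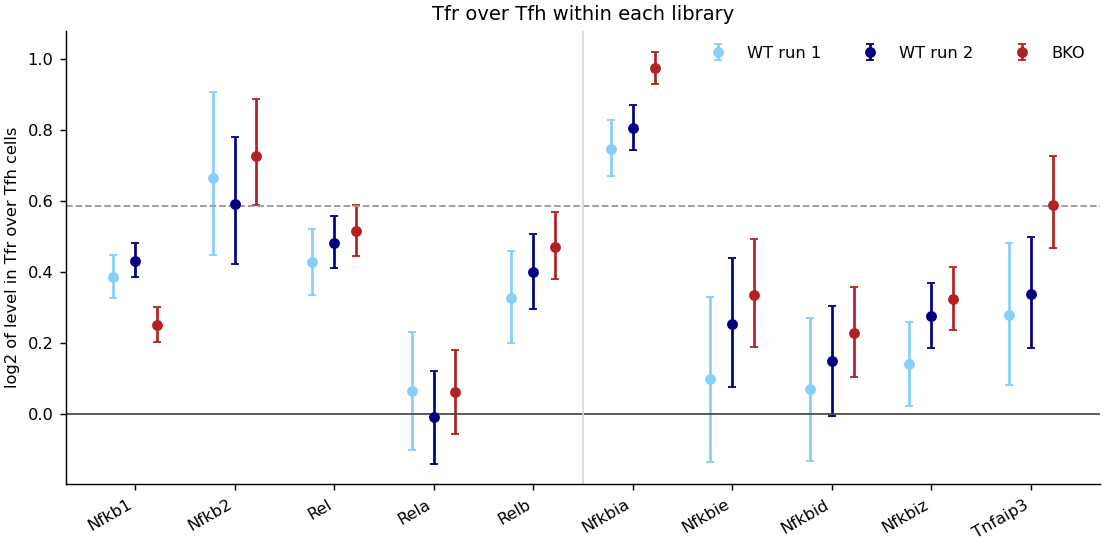
Log2 ratio of the level in Tfr cells to that in Tfh cells within each library, with counting intervals as bars and 1.5 times as a dashed line. Nfkbia lies highest in every library (1.68-fold to 1.96-fold) and Rela lies at about 0.

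The excess of Tfr over Tfh cells was set side by side between BKO and the deeper WT run 2, a measure in which a counting factor that is equal in both classes cancels. For Nfkbia the excess was larger in BKO by 0.17 on the log2 scale (counting interval 0.09 to 0.25), and 87.4% of 6552 genes had a smaller difference. For Tnfaip3 it was larger by 0.25 (0.05 to 0.45), above 93.7% of genes, and for Nfkb1 it was -0.18 (-0.25 to -0.11), above 8.99%. The middle 90% of genes ranged from -0.23 to 0.29, so none of the 3 lay outside it. Against WT run 1 the values were 0.23 for Nfkbia (0.14 to 0.32), 0.31 for Tnfaip3 (0.08 to 0.55) and -0.14 for Nfkb1 (-0.21 to -0.06), and Tnfaip3 lay just outside the middle 90% of genes (-0.25 to 0.30). Foxp3 in Tfh cells differed between the runs, at 0.801 CPM in run 1 and 16.5 CPM in run 2, and its part in these values was not tested. The fill of the subclusters differed between the genotypes in both classes, as given next to the levels by subcluster.

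The authors divided each class into subclusters, and subcluster 3 of either class held the highest level of nearly all of these genes. Since the genes took part in the clustering, this is a description. Subcluster 3 is marked by Egr3, a gene that the antigen receptor induces: in Tfh cells it stood at 82.7, 81.5 and 75.5 CPM there and at 6.58, 6.61 and 5.03 CPM in the other cells, and in Tfr cells at 108, 128 and 75.5 CPM against 6.77, 10.8 and 8.27. Among subclusters of at least 50 cells, 8, 9 and 9 of the 10 genes were highest in Tfh subcluster 3 of WT run 1, WT run 2 and BKO, and 9, 9 and 10 in Tfr subcluster 3. Over all genes 12.2%, 12.7% and 11.7% were highest in Tfh and 24.8%, 24.6% and 20.1% in Tfr subcluster 3. The interval of subcluster 3 lay clear of the next one for 5, 6 and 4 of the 10 genes in Tfh and for 7, 6 and 5 in Tfr cells. The exceptions were Tnfaip3, highest in Tfh subcluster 5 of both WT runs (52.4 and 54.0 CPM), Rela in Tfh subcluster 7 of WT run 1, and Nfkbie in Tfh subcluster 1 of BKO and Tfr subclusters 1 and 4 of the WT runs. In each of these exceptions the interval of the highest subcluster overlapped that of the next. Of handling genes, Fos stood at 41.5, 33.6 and 17.8 CPM in Tfh subcluster 3, against 3.45, 3.52 and 3.95 CPM in the other Tfh cells, and at 30.2, 34.3 and 15.7 CPM in Tfr subcluster 3, against 2.54, 3.08 and 1.96 CPM. It was thus 4.12-fold to 10.6-fold higher there. Egr1 was 3.67-fold to 5.98-fold and Dnajb1 1.08-fold to 1.68-fold higher in subcluster 3, while Jun was at most 1.11-fold higher and heat shock genes Hspa1a and Hspa1b were at or near 0. The part of handling in the pattern was not tested.

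Nfkbid had the highest fold of the 10 genes in subcluster 3, except in BKO Tfr cells, where Nfkbiz was 3.18-fold and Nfkbid 2.94-fold higher. In Tfh subcluster 3 it stood at 110, 97.7 and 99.5 CPM, against 19.3, 21.1 and 23.0 CPM in the other Tfh cells, which is 5.56-fold, 4.55-fold and 4.25-fold higher. In Tfr subcluster 3 it stood at 127, 116 and 99.0 CPM, against 20.2, 22.3 and 33.3 CPM, or 6.15-fold and 5.12-fold in the WT runs. The smaller fold in BKO Tfr cells came with 49.7 CPM in subcluster 1, against 30.2 and 34.1 CPM in the WT runs. The lowest Tfr level was that of subcluster 0, at 14.8, 16.9 and 14.7 CPM, nearly the same in every sample.

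Nfkbiz and Rel followed the same subcluster. Nfkbiz in Tfr subcluster 3 stood at 236, 257 and 213 CPM, against 82.8, 81.9 and 66.8 CPM in the other Tfr cells, and in Tfh subcluster 3 at 206, 189 and 150 CPM, against 74.0, 71.4 and 56.6 CPM. Rel in Tfr subcluster 3 stood at 415, 415 and 288 CPM, against 138, 132 and 122 CPM, and in Tfh subcluster 3 at 260, 238 and 206 CPM, against 108, 105 and 81.4 CPM. Both were 2.25-fold to 3.18-fold higher in subcluster 3 in each class and sample. Tnfaip3 was 1.69-fold to 2.29-fold higher there, Relb 1.70-fold to 1.96-fold and Nfkbia 1.55-fold to 2.22-fold. Nfkb2 was 1.38-fold to 2.04-fold higher. Nfkb1 (1.29-fold to 1.41-fold), Rela (1.19-fold to 1.41-fold) and Nfkbie (1.08-fold to 1.39-fold) stayed under 1.5 times in each class and sample. That fold was passed by 5.17%, 4.95% and 4.22% of all genes in Tfh and by 7.06%, 6.15% and 5.47% in Tfr cells, in the same order of samples.

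Nfkbia did not share the low level of Nfkbid outside subcluster 3. In Tfr cells it stood at 160, 161 and 219 CPM in subcluster 0, at 305, 267 and 467 CPM in subcluster 1, at 303, 324 and 509 CPM in subcluster 4 and at 497, 483 and 630 CPM in subcluster 3. In Tfh cells it stood at 81.7, 83.6 and 116 CPM in subcluster 0, at 198, 190 and 295 CPM in subcluster 1 and at 253, 225 and 307 CPM in subcluster 3. By level, subcluster 0 was lowest and subcluster 3 highest in each class and sample. In Tfh cells the intervals of subclusters 1 and 3 overlapped in BKO and those of subclusters 8 and 0 in both WT runs, so the order of these pairs cannot be read.

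**Figure D4:**
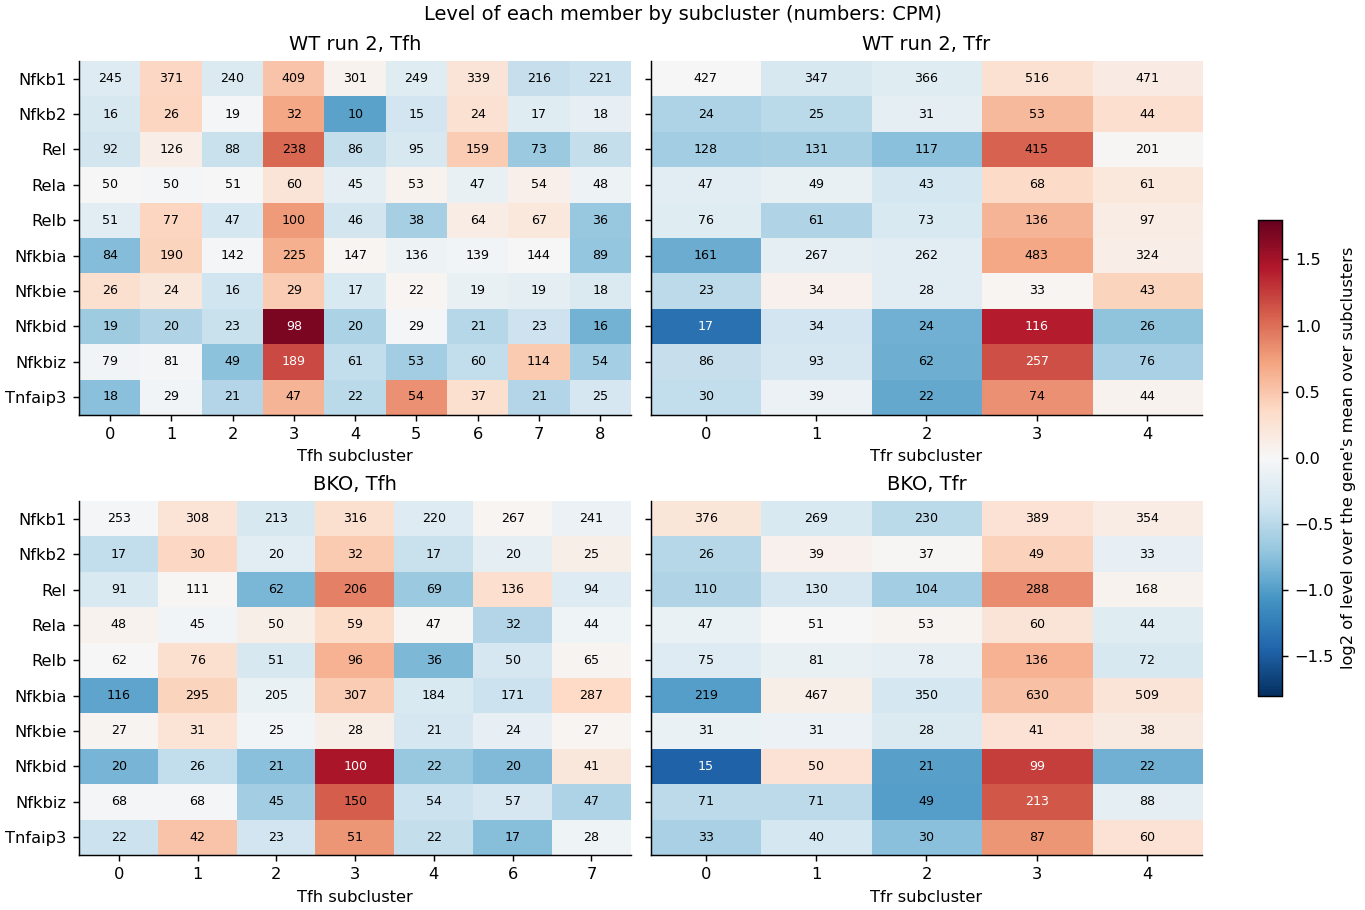
Level of each gene by subcluster of at least 50 cells, for Tfh (left) and Tfr cells (right) of WT run 2 (top) and BKO (bottom); numbers are CPM and colour is the log2 of a level over the mean of that gene across the subclusters of the panel. The column of subcluster 3 is the reddest in each panel, with Nfkbid at 97.7 and 116 CPM in WT run 2 and at 99.5 and 99.0 CPM in BKO.

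Across the 10 subclusters with at least 100 cells in both WT run 2 and BKO, some of the 10 genes moved together. These points share libraries and were clustered on the same genes, so r is a description. By the smaller r of WT run 2 and BKO, Rel and Tnfaip3 came first, with 0.95 in both samples. Next were Rel and Nfkbiz (0.90 and 0.93) and Rel and Relb (0.95 and 0.89). Nfkbid and Nfkbiz ranked lower, at 0.91 and 0.84, and Nfkb1 and Rela came last, at 0.56 and 0.12. Beyond the set, the genes most like each member were taken by the smaller r of the samples, out of 6141. For Nfkbia they were Batf (0.98 in WT run 2 and 0.97 in BKO), an AP-1 family factor, Junb and Ier5. For Nfkbid they were Nr4a3 (0.95 and 0.98), a nuclear receptor induced through the antigen receptor, Orai1, a calcium channel, and Sept7. For Nfkbiz they were Stat3 (0.94 and 0.93), Cd69 and Arid5b. For Nfkb2 they were Dusp1 (0.93 and 0.94), Cd83 and Il1r2. For Rel they were Casp4 (0.96 and 0.97), Foxp4 and Hivep3, and for Tnfaip3 Foxp4 (0.97 and 0.97), Kdm2b and Casp4. Relb was most like Slc41a1, Hivep3 and Slc26a2, and Nfkb1 most like Phtf2, Reep3 and Jazf1. Nfkbie was most like Ptp4a2, Plagl2 and Ppig. Rela reached only 0.84 and 0.83 with Kdm6b, followed by Hsd17b12 and Vma21.

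Subclusters filled differently in the genotypes, which bears on sums over a whole class. Tfh subcluster 2 held 6.90%, 7.33% and 34.1% of Tfh cells, and Tfh subcluster 5 held 9.63%, 9.90% and 0.172%. Tfr subcluster 0, where Nfkbia is lowest, held 39.1%, 40.0% and 15.4% of Tfr cells, and Tfr subcluster 1 held 16.2%, 17.1% and 36.3%. Subcluster 3 held 16.5%, 16.6% and 20.5% of Tfh and 15.0%, 16.0% and 19.0% of Tfr cells. The levels were therefore also compared within the 7 Tfh and 5 Tfr subclusters that hold at least 50 cells in every sample.

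Nfkbia was above both WT runs in 7 of 7 Tfh subclusters, at log2 ratios of 0.23 to 0.82, and in 5 of 5 Tfr subclusters, at 0.36 to 0.71. In Tfh subcluster 6 the counting interval included 0 (-0.06 to 0.55). Nfkbia passed 1.5 times in Tfh subcluster 7 (181, 144 and 287 CPM), Tfr subcluster 1 and Tfr subcluster 4. There 3.46%, 1.01% and 2.87% of all genes were called higher. Tfh subcluster 7 held 56, 57 and 134 cells in WT run 1, WT run 2 and BKO. With the WT subclusters weighted as they fill in BKO, the ratio for all Tfr cells was 0.51 in place of 0.72, and for all Tfh cells 0.47 in place of 0.53, so that Nfkbia was no longer called in Tfr cells.

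The members with the longest introns, Nfkb1, Rel and Nfkbiz, lay mostly on the other side. Over all cells of a class, 58.9% (Tfh) and 56.6% (Tfr) of all genes were below both WT runs. Nfkbiz was below both in 7 of 7 Tfh and 4 of 5 Tfr subclusters, and Rel in 6 of 7 and 5 of 5. Nfkb1 was below both in 5 of 7 and 5 of 5, and above both in 2 Tfh subclusters. Relb (19.3 kb of intron) was below both in 4 of 7 and 2 of 5, and above both in 2 Tfh and 2 Tfr subclusters. Among subclusters below both, the counting interval included 0 for Nfkbiz in Tfh subclusters 2, 4 and 6 and Tfr subcluster 0. For Rel it included 0 in Tfh subclusters 0 and 6 and Tfr subclusters 1 and 4, and for Nfkb1 in Tfh subcluster 2. For Relb it cleared 0 only in Tfh subcluster 4 (-0.85 to -0.01). Those called lower were Nfkbiz in Tfh subcluster 7, Tnfaip3 in Tfh subcluster 6 and Nfkb1 in Tfr subcluster 2. They stood at 117, 114 and 47.3 CPM (Nfkbiz), 44.6, 37.3 and 17.1 CPM (Tnfaip3) and 394, 366 and 230 CPM (Nfkb1). In these subclusters 10.3%, 6.9% and 5.98% of genes were called lower. The Nfkbiz call rested on 33, 55 and 46 UMIs, and the Tnfaip3 call on 52, 68 and 16. Nfkbid, higher in BKO over all Tfr cells (0.34), was above both runs in 1 of 5 Tfr subclusters and below both in 3, and with the WT subclusters weighted as in BKO its ratio was 0.05. Tnfaip3 was above both runs in 4 of 5 Tfr subclusters, at 0.08 to 0.75, and below both in 0. In subclusters 1, 2 and 3 of these the counting interval included 0, and in subcluster 4 it was 0.02 to 1.42. Over all Tfr cells 33.3% of genes were above both runs.

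**Figure D5:**
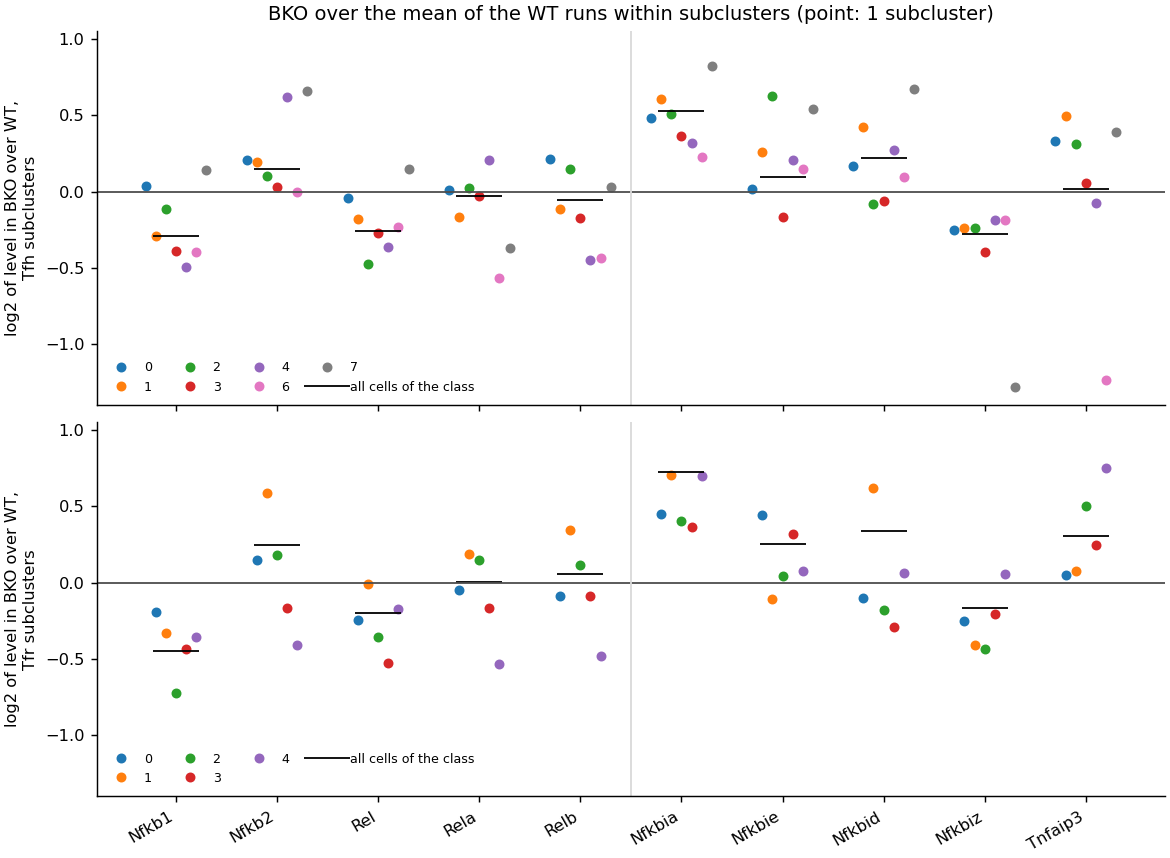
Log2 ratio of BKO to the mean of the WT runs within each Tfh (top) and Tfr (bottom) subcluster of at least 50 cells in every sample (points, coloured by subcluster number) and over all cells of the class (bars). All points of Nfkbia lie above 0 (0.23 to 0.82 in Tfh, 0.36 to 0.71 in Tfr), and all 7 Tfh points of Nfkbiz lie below 0.

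The rest of the pathway was read from a list of 81 genes, of which 58 reached 20 CPM in Tfh and 63 in Tfr cells. In Tfh cells 1 was called higher and 1 lower, where 0.396% and 2.45% of all genes were, and in Tfr cells also 1 and 1, where 0.887% and 2.4% were. Gadd45b, a stress-induced target that limits cell death, was the higher gene in both: it stood at 50.9, 49.5 and 84.6 CPM in Tfh cells (log2 ratio 0.75) and at 59.3, 54.6 and 97.0 CPM in Tfr cells (0.76). Bcl2l1, which encodes the survival protein Bcl-xL, was the lower gene in Tfh cells, at 28.2, 27.5 and 17.5 CPM. Both of these genes lost the call in some settings that correct for intron length or for the fill of subclusters.

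Upstream of the members, 8 of 8 measured kinases and their regulators were below both WT runs in each class, with a median of -0.18 in Tfh and -0.34 in Tfr cells, where 58.9% and 56.6% of all genes were below both. With the median for intron length taken off, the kinases stood at a median of -0.01 in Tfh and -0.14 in Tfr cells. Tab2, an adaptor of the kinase TAK1, stood at 146, 150 and 126 CPM in Tfh cells, and Ikbke, an IκB kinase relative, at 92.7, 96.1 and 82.1 CPM. Antigen receptor adaptors were split: the kinase Prkcq stood at 713, 714 and 568 CPM in Tfh cells and the protease Malt1 at 340, 348 and 431 CPM, with Bcl10 also above both runs. With the intron median taken off, Prkcq (122 kb of intron) stood at -0.01 in Tfh and -0.18 in Tfr cells, and Malt1 at 0.47 and 0.46. The median of these adaptors was then 0.03 in Tfh and -0.03 in Tfr cells. Of 11 TRAF and IAP adaptors 9 were below both runs in Tfh and 6 in Tfr cells, the latter near the share over all genes (56.6%). Their median was -0.16 and -0.04, and -0.08 and 0.02 with the intron median taken off. Tank stood at 392, 392 and 383 CPM and Traf3 at 168, 170 and 121 CPM in Tfh cells. Of 10 measured ubiquitin editors and other brakes 8 were below in Tfh and 6 in Tfr cells, the latter again near 56.6%, and their median of -0.17 and -0.09 came to 0.01 and -0.01 with the intron median taken off. Among them Cyld stood at 249, 236 and 196 CPM and Tax1bp1 at 224, 205 and 196 CPM in Tfh cells. Of other Rel or IκB proteins, only 3 were measured in Tfh and 4 in Tfr cells. Of these 0 were below both runs in either class, and 1 and 3 were above both. Nkap stood at 54.3, 49.8 and 50.1 CPM and Nfkbil1 at 35.2, 31.6 and 40.0 CPM in Tfh cells.

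Targets lay higher in both classes, and receptors in Tfr cells. Of the 8 receptors measured in Tfr cells 5 were above both runs and 3 below both, with a median of 0.34 and none called. Tnfrsf4 (OX40) stood at 542, 488 and 808 CPM and Tnfrsf18 (GITR) at 371, 339 and 518 CPM. In Tfh cells 3 of 6 receptors were above and 3 below, with a median of 0.02. Cd28 stood there at 427, 423 and 388 CPM and Cd27 at 343, 331 and 400 CPM. Of known targets 11 of 16 were above both runs in Tfh cells (median 0.18) and 14 of 18 in Tfr cells (median 0.22), where 31.9% and 33.3% of all genes were. Below both were 2 targets in Tfh and 4 in Tfr cells. Among the latter were Tnf (log2 ratio -0.51), Il2ra (-0.45) and Bcl2l1 (-0.44). Ltb, which encodes lymphotoxin β, stood at 708, 644 and 852 CPM in Tfh and 869, 792 and 954 CPM in Tfr cells, and Ccnd2, which encodes cyclin D2, at 328, 350 and 370 CPM in Tfh and 375, 395 and 450 CPM in Tfr cells. With the intron median taken off, the targets stood at a median of 0.15 in Tfh and 0.23 in Tfr cells, and the receptors at 0.04 in Tfh and 0.26 in Tfr cells.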

How the data were processed

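The deposited values are raw UMI counts, 1 matrix per sample, beside the authors' lists of Tfh and Tfr cells with their subclusters. The submitters' processing notes name Cell Ranger and mm10. The tables hold cells under 4000 genes. The labels do not say how doublets were handled, and none were removed here.

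Counts of annotated cells were summed per library, class and subcluster and scaled to 1000000 UMIs (CPM). The rule of size took 0.5 CPM added for ratios, a minimum of 20 CPM and 1.5 times. The matrices held 32518538, 54059000 and 85225125 UMIs in WT run 1, WT run 2 and BKO, over 5554, 5721 and 1275404 barcodes. The BKO total includes barcodes of few UMIs, so these totals do not compare depth per cell. Median UMIs per annotated cell were 4413, 7293.5 and 6243 in Tfh and 5146, 8407 and 7054.5 in Tfr cells. Ratio intervals take the mean count of the WT runs, since the runs share cells. Cells under the 2500 UMIs used for thinning numbered 194, 56 and 66 (Tfh) and 36, 2 and 9 (Tfr). Intron length came from GENCODE vM21, in 30 bins. Tools were Python 3.11.15, scipy 1.17.1 and, for TMM factors alone, edgeR 4.0.16.

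The members and lists were chosen with earlier results of these data known. All members were named, with the pathway genes past the rule, the 2 of highest CPM per group (given in Tfh cells; in Tfr cells for receptors and targets) and the 3 genes most like each member; Bcl10 was named after its values were seen, and 1 pathway gene past the rule in Tfr cells is not reported here. Alternatives cover scaling, runs, intron length, added CPM, the minimum, cells, thinning and subclusters.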

Additional observations from a re-analysis of the deposited data

Results flagged for a closer look

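Cells of 4000 or more genes are left out of the authors' tables, and their counts entered none of the values above. Nfkbia was counted there too: it stood at 144 CPM in 295 such cells of WT run 1, at 145 CPM in 375 of WT run 2 and at 253 CPM in 821 of BKO. Over the annotated cells it stood at 192, 183 and 277 CPM, so that the left-out cells held a lower Nfkbia level in each sample and BKO was again higher than both runs.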

How the results depend on the processing

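No paired analysis was possible because WT and BKO share only replicate number 1 and each genotype is 1 library. Without WT replicate 1 or 2 the count of members called was 0 in Tfh and 1 in Tfr cells in each case, and that of other pathway genes was 2 in Tfh and 3 to 4 in Tfr cells. TMM scaling gave 1 member in Tfh cells and 7 other pathway genes in Tfr cells. It changed the split of all called genes to 63 higher and 83 lower in Tfh (26 and 161 as reported) and to 104 and 74 in Tfr cells (58 and 157). Scaling to a total without variable gene classes gave 4 pathway genes in Tfr cells. Taking off the trend over intron length gave 0 members in Tfr cells and 1 pathway gene in Tfh cells. Equal weight for each subcluster gave 0 members and 0 pathway genes in Tfr cells, as did WT subclusters weighted as in BKO (chosen after seeing the data), which gave 1 pathway gene in Tfh cells. With no minimum of CPM 8 pathway genes were called in Tfh and 7 in Tfr cells. A minimum of 50 CPM, and WT cells with the same class in both runs, each gave 1 in Tfh cells. The cause of these changes was not tested. The log2 ratio of Nfkbia stayed above 0 in all alternatives run, from 0.35 to 0.69 in Tfh and from 0.51 to 0.84 in Tfr cells, while that of Nfkbid in Tfr cells was -0.05 with equal weights. Intron length and the fill of subclusters were each corrected alone and not together, so these ranges do not cover both at once. With 1 library per genotype, no setting shows the spread between animals, and depth limits genes near 20 CPM.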
